A study of Rattus norvegicus with 84 samples.

Results

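The dentate gyrus of the rat hippocampus was compared between 12 and 5 months of age in 28 RNA sequencing libraries, 1 from each of 28 rats, among the 84 libraries of the series. The members were chosen by their labels alone, as every library of the dentate gyrus table, 12 from rats of 5 months and 16 from rats of 12 months. All were male F344 rats, an inbred strain, with no treatment, transgene or other genotype given in the labels. RNA came from the subregion dissected out of 1 hemisphere of each rat, so each library is a piece of tissue holding many cell types, and polyA-selected RNA was sequenced. The CA1 and CA3 subregions of the same 28 rats make up the remaining libraries and serve here only as a comparison. The rat numbers fall into 2 runs that both hold each age. The first number run, 3337 to 3352, has 6 rats of 5 months and 10 of 12 months. The second has 6 of each age in 2 separate blocks of numbers: 3593 to 3598 are all of 5 months and 3673 to 3678 all of 12 months. In the second run, age and any difference between these 2 blocks cannot be told apart. The labels do not say what separates the number runs, so they are treated as a possible batch. Each rat number stands for a separate animal, and p-values here measure the spread between rats. Below, a rat is named by its age and its replicate number, as in 12-month rat 8 (3350).

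The dentate gyrus is the entry station of the hippocampal circuit. Its granule cells receive the perforant path from the entorhinal cortex, fire sparsely under strong GABA inhibition, and send their mossy fibres to CA3, an arrangement studied for its role in keeping similar memories apart. Its inner edge, the subgranular zone, keeps neural stem cells that make new granule cells in adult rodents under Notch, Wnt, hedgehog and BMP signals, at a rate known to decline with age.

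Libraries held 14858373 to 21840916 reads. Markers of the labelled tissue were present: 7 of 9 granule cell markers were in the table, Prox1 and C1ql2 among them, and none was at 0 in any library. Their summed level ran from 12545 to 19131 normalized counts at 5 months and from 10944 to 16790.5 at 12 months. It was not compared with the level in CA1 and CA3. The unit, called a normalized count below, is a gene's reads divided by 1 factor per library. Markers of the neighbouring CA1 subregion varied between libraries: the summed level of 5 of 5 CA1 pyramidal markers ran from 3014 to 18531 at 5 months and from 2244 to 13762 at 12 months, with medians of 6417 and 5824 in the first number run and 9797 and 5379 in the second. The CA1 sum was highest in 5-month rats 12 and 7 (3598 and 3593), both of the second run, at 18531 and 18292. In these libraries it was above the granule cell sum, 13271 and 15625, and in all others it was below. The summed level of 4 of 6 choroid plexus markers was 7356 in 5-month rat 10 (3596) and 2980 in 12-month rat 6 (3348). Its medians were 36.8 at 5 months and 44.4 at 12 months. That of 3 of 4 red blood cell markers was highest in 5-month rats 3 and 6 (3339 and 3342), at 10572 and 8558. Its medians were 3583 at 5 months and 3780 at 12 months. The part of these markers and of the CA1 markers in the differences below was not tested. The libraries of 5-month rats 3 and 6 (3339 and 3342), both of the first number run, stood apart from the rest: their root-mean-square distance from the median of their age and run was 0.54 and 0.50 log2 units over all genes, against 0.30 to 0.47 in the other 26, and mitochondrially encoded genes took 12.1% and 12.6% of their reads, the 2 highest shares among the 28. Results are therefore given with and without this pair where it matters. In bulk tissue, fewer cells of a type and less RNA per cell cannot be told apart, which holds for every cell type gene below.

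Of 14526 genes with a normalized count of at least 10 in at least 12 libraries, 5382 (37.1%) passed the threshold, a limma adjusted p under 0.05 on log2(normalized count + 1). The calls were split evenly, 2690 higher at 12 months (18.5% of genes tested) and 2692 lower (18.5%), and the median log2 change over all genes was 0.01. These 18.5% shares are the background for the calls over all 28 libraries in every gene group below, and a group whose share lies near them is not set apart by its count. The number runs differed in how many genes passed alone: 25 (0.172%) in the first and 6812 (46.9%) in the second. By direction these were 21 rises (0.145%) and 4 falls (0.0275%), then 3475 rises (23.9%) and 3337 falls (23.0%). The last 2 shares are the background for counts in the second run alone, whose 2 ages are also 2 separate blocks of numbers. Of the 14526 genes, 1885 passed over all 28 libraries and had an unadjusted p under 0.05 in the same direction in each number run, 845 higher and 1040 lower. That number is the background for group counts by the same rule below. The rule uses the libraries of the pooled call again, so it is no independent check of that call. Without rats 3339 and 3342, 4455 of the 5382 calls (82.8%) remained. A log2 change is the difference of the 2 ages' mean log2 values, 12 minus 5 months, given with its standard error over 12 and 16 libraries. Where 2 changes are given for a gene, the first is from the first number run. It understates the fold of genes at low levels.

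Genes past the threshold in each number run alone numbered 14, of which 12 rose and 2 fell. Prex2, an exchange factor that activates the small GTPase Rac, had a median of 1408 (1101 to 2010.5) at 5 months and 1767 (1500.4 to 2354) at 12 months. The 12-month rats were the high ones, all 16 lying above the 5-month median although the ranges overlapped, and the log2 change was 0.39 ± 0.08 (limma adjusted p = 9.1e-04). Pls1, a plastin that bundles actin filaments, had a median of 129.8 (90.8 to 176) at 5 months and 189.5 (147 to 259) at 12 months, a log2 change of 0.59 ± 0.10 (limma adjusted p = 1.5e-04) that was 0.60 in the first number run and 0.55 in the second. Anxa4, a calcium-dependent phospholipid-binding annexin, had a median of 185 (137 to 277) at 5 months and 280.4 (215 to 316) at 12 months and a log2 change of 0.58 ± 0.08. All 16 rats of 12 months lay above the 5-month median, and the ranges overlapped. Myo5c, a class V myosin motor, had a median of 16.3 (4.78 to 39.0) at 5 months and 54.4 (29.0 to 99.7) at 12 months, a log2 change of 1.55 ± 0.21 (limma adjusted p = 4.5e-05). The other members that rose were Cdh1 (2.62 ± 0.35), Fcgr2b (1.01 ± 0.14), Gcnt1 (0.88 ± 0.11), Fgl2 (0.72 ± 0.09), Gabra3 (0.77 ± 0.09), AC131360.2 (0.66 ± 0.13), AABR07031734.9 (0.35 ± 0.06) and AABR07001734.1 (3.19 ± 0.24), the last 3 loci without a gene symbol of known function. The 5-month median of AABR07001734.1 was 4.16 normalized counts and that of Cdh1 was 1.74, so that their changes start near the detection floor.

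Of the 14, 2 genes fell. Tspan18, a tetraspanin, had a median of 507 (448 to 683) at 5 months and 376 (279 to 451) at 12 months and a log2 change of -0.53 ± 0.07 (limma adjusted p = 2.5e-05). Vwa5b1, which carries a von Willebrand factor A domain, had a median of 106 (77.8 to 138) at 5 months and 64.9 (35.7 to 84.9) at 12 months and a change of -0.74 ± 0.11 (limma adjusted p = 1.1e-04). In both genes the 12-month rats were the low ones, with all 16 below the 5-month median. All 14 genes kept their call over the 28 libraries when any single rat was left out. Without rats 3339 and 3342, 7 of the 14 kept their call in the first number run, and 3 of the 14 (AABR07001734.1, Cdh1 and Tspan18) kept it in each of the 16 fits that left out 1 rat of that run. AABR07001734.1 reached 10 normalized counts in 0 and Cdh1 in 1 of the 12 libraries of 5 months, so that both passed the filter through the 12-month group in which they were high, and their calls and ranges support nothing further. A total of 4 genes (0.0275% of genes tested) had no overlap between the 12 and 16 libraries: AABR07001734.1, Fgl2, Mgat5b and G6pc3, named here after their values were seen. G6pc3, a glucose-6-phosphatase of the endoplasmic reticulum, ran from 797 to 983 at 5 months and from 517 to 744 at 12 months. Fgl2, a secreted fibrinogen-like protein, ran from 46.7 to 84.4 and from 86.1 to 142.

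**Figure D1:**
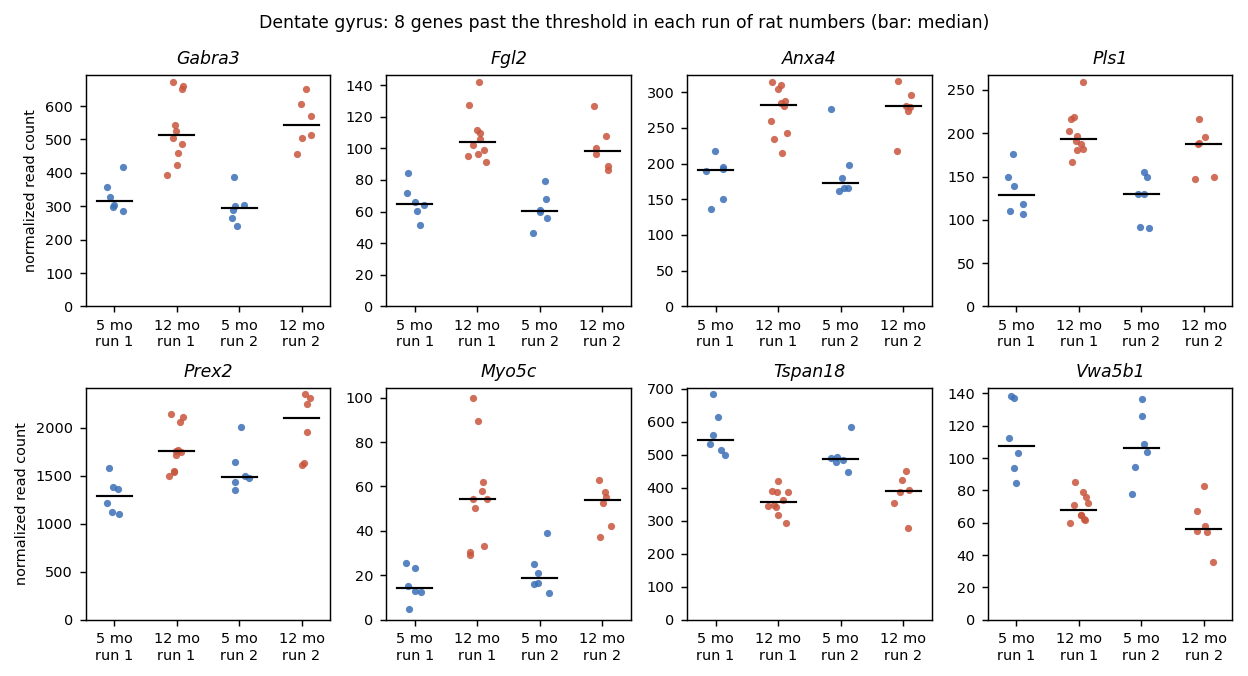
Normalized counts (linear axes from 0) of 8 genes past the threshold in each number run alone, 1 panel a gene and 1 point a rat, with the 5-month and 12-month rats of each run side by side and bars at the group medians. In Gabra3, Fgl2, Anxa4, Pls1, Prex2 and Myo5c the 12-month points lie higher in both runs, and in Tspan18 and Vwa5b1 they lie lower.

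Among genes with a mean of at least 50 over the 28 libraries that passed the threshold and had an unadjusted p under 0.05 in the same direction in each number run, the largest rises included Arid4b (1.09 ± 0.17), a subunit of a histone deacetylase complex, Mysm1 (0.78 ± 0.13), a histone H2A deubiquitinase, and Pdk4 (0.99 ± 0.15), the kinase that switches off pyruvate dehydrogenase. Tlr7 (0.83 ± 0.15), an endosomal receptor for single-stranded RNA, Slc9a3 (0.80 ± 0.15), a sodium-proton exchanger, and Cntnap5b (0.77 ± 0.12), a neurexin-related adhesion protein, rose as well. So did Erich3 (0.80 ± 0.15), Zkscan8 (0.74 ± 0.16) and Zfp933 (0.75 ± 0.17), the last 2 zinc finger proteins. Arid4b had a median of 51.0 (25.0 to 68.2) at 5 months and 104 (58.5 to 203) at 12 months. All 16 rats of 12 months lay above the 5-month median, while the ranges of the 2 ages overlapped, and the same held for Pdk4 and Tlr7.

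The largest falls by the same rule included Col1a1 (-0.98 ± 0.20), a fibrillar collagen, Loxl1 (-0.71 ± 0.12), a lysyl oxidase that crosslinks elastin, Notch3 (-0.78 ± 0.12), a Notch receptor of vascular mural cells, and Hspa1a (-0.86 ± 0.13), the inducible HSP70 chaperone. Also among them were C1ql1 (-0.69 ± 0.11), a secreted C1q-like protein, Lrfn3 (-0.69 ± 0.11), a synaptic adhesion protein, and Nkain1 (-0.70 ± 0.15), which interacts with the sodium pump. Kif19 (-0.69 ± 0.15), a kinesin, Snu13 (-0.68 ± 0.13), a protein of the spliceosome and of small nucleolar RNPs, and Fam110a (-0.68 ± 0.12) completed the named part of this group. Notch3 had a median of 595 (485 to 785) at 5 months and 342 (222 to 572) at 12 months, and all 16 rats of 12 months lay below the 5-month median. The counts of Hspa1a cannot be separated with certainty from those of its near-identical copy.

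**Figure D2:**
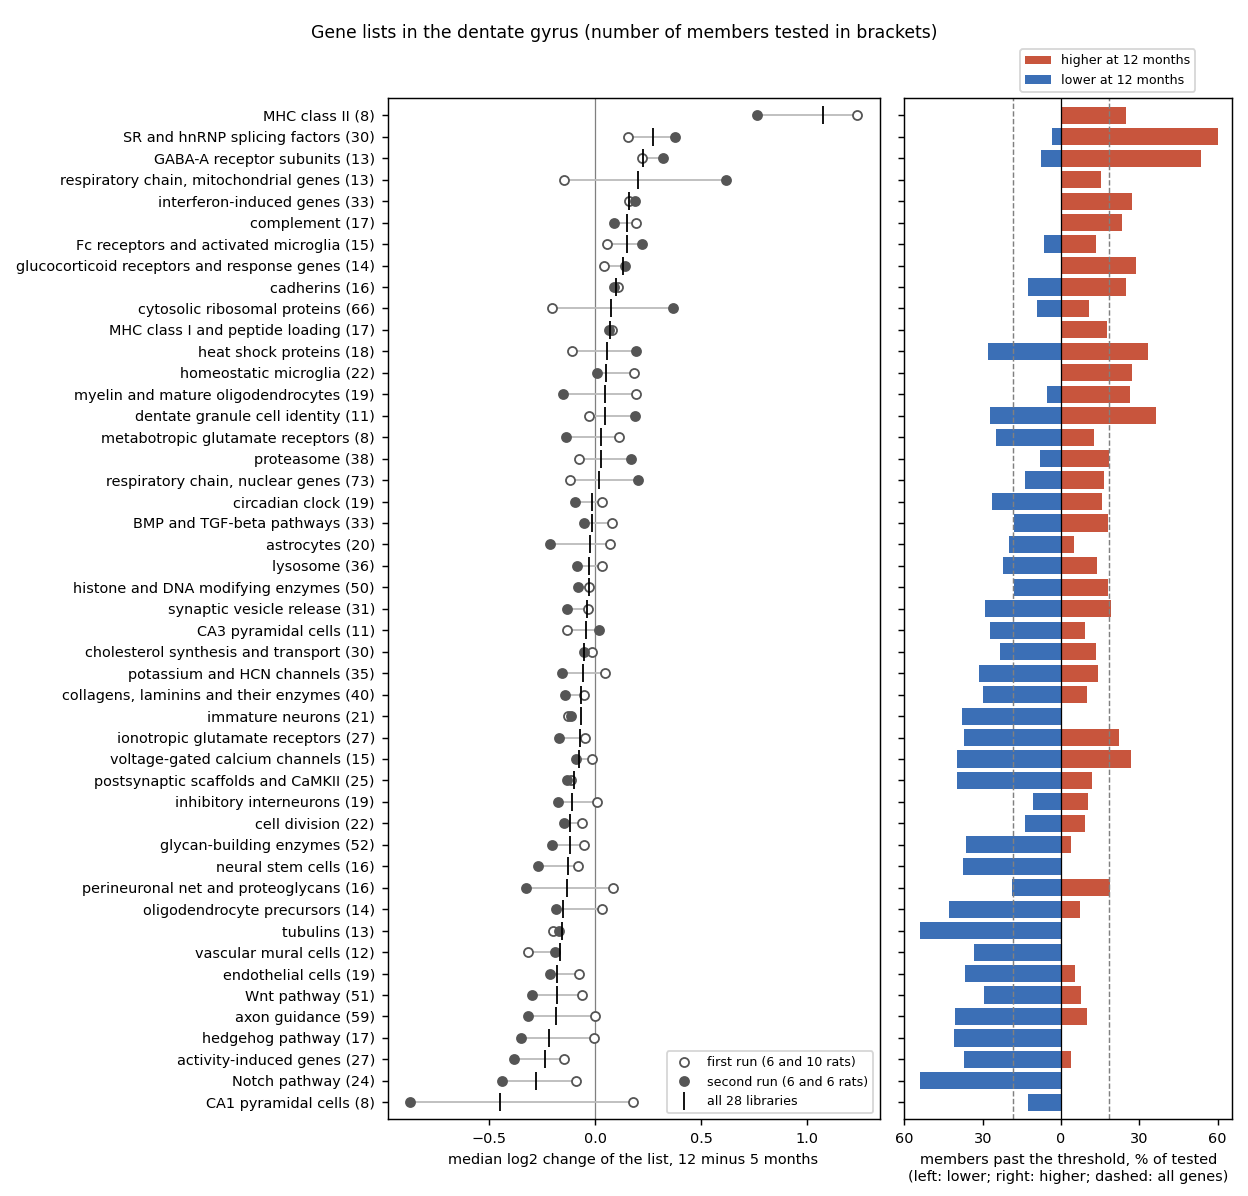
For gene groups named in the text, the left panel shows the median log2 change (12 minus 5 months) of the members tested in each number run, and the right panel the percent of members past the threshold higher and lower, with a dashed line at the 18.5% of all genes. The bars of Notch genes and tubulins lie on the lower side alone, those of interferon-induced genes on the higher side alone, and ribosomal protein genes have medians of opposite sign in the 2 runs.

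Granule cell genes did not move as a block. Of 11 tested, 4 rose and 3 fell. Dsp (0.39 ± 0.10), a desmosomal plakin that marks granule cells, Dgkh (0.35 ± 0.11), a diacylglycerol kinase, and Trpc6 (0.32 ± 0.08), a cation channel, were among those higher. The falls were in C1ql2 (-0.28 ± 0.09) and C1ql3 (-0.36 ± 0.09), C1q-like proteins secreted at mossy fibre synapses, and Il16 (-0.32 ± 0.07), a neuronal PDZ protein precursor. C1ql2 had a median of 8007 (5500.0 to 9775) at 5 months and 6269 (4380.1 to 7936) at 12 months, so the 2 ages overlapped widely, and its call was lost without rats 3339 and 3342 (limma adjusted p = 0.071). Prox1, the transcription factor that maintains granule cell identity, had a median of 3402 (2805 to 4382) at 5 months and 3625 (2677 to 4118) at 12 months and a change of 0.03 ± 0.07 (limma adjusted p = 0.80), and Calb1, the calcium buffer calbindin, a change of 0.13 ± 0.09 (limma adjusted p = 0.27). Of 5 mossy cell genes, Calcrl (0.35 ± 0.11), a receptor subunit for calcitonin gene-related peptide, rose, and Ajap1 (-0.25 ± 0.07), an adherens junction protein, fell.

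Genes of the neurogenic niche were called lower more often than higher. Of 16 neural stem cell genes, none rose and 6 fell, Sox9, Sox2, Hes5, Tfap2c and Nes among them. The transcription factor Sox9 had a median of 613 (443 to 897) at 5 months and 392 (286 to 537) at 12 months and a log2 change of -0.66 ± 0.11 (limma adjusted p = 1.9e-04). Its fall was unequal in the 2 number runs, with a change of -0.32 in the first number run and -1.07 in the second. The difference between the runs was itself past the threshold for Sox9 (-0.75 ± 0.18), Sox2 (-0.62 ± 0.15) and Hes5 (-0.78 ± 0.24), given as second minus first. Nes, the intermediate filament nestin, changed by -0.42 in the first number run and -0.26 in the second. In the second run alone 8 of the 16 fell, against 23.0% of all genes. The run difference passed with a lower value in 6, against 2.45% of all genes. Astrocyte genes moved with them: 11 of 20 fell in the second run and 6 had a lower run difference. Their summed level ran from 146193 to 191994 at 5 months and from 141685 to 207144 at 12 months in the first run, and from 160799 to 179521 and from 138836 to 165053 in the second. None of the 20 was at 0 in any library. The 2 lists share 3 genes, Sox9, Slc1a3 and Gfap, and the part of astrocytes in the stem cell result was not tested. Gfap changed by 0.02 ± 0.10, and the quiescence-associated Hopx by -0.15 ± 0.09, neither past the threshold.

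Cell division genes gave few calls: of 22, 2 rose and 3 fell. The falls were in Ccnd1 (-0.30 ± 0.09), cyclin D1, Cdk4 (-0.16 ± 0.05), its kinase partner, and Plk1 (-0.48 ± 0.15), a mitotic kinase. Mki67 had a median of 14.1 (3.25 to 27.9) at 5 months and 13.4 (6.89 to 16.5) at 12 months, close to the filter, and Top2a changed by -0.47 ± 0.22 (limma adjusted p = 0.090). Of 21 immature neuron genes, none rose and 8 fell. Sox11 (-0.72 ± 0.17), a transcription factor of newborn neurons, Igfbpl1 (-0.74 ± 0.19), Marcksl1 (-0.62 ± 0.09), a regulator of actin, Dpysl5 (-0.43 ± 0.09) and Dpysl3 (-0.36 ± 0.09), collapsin response mediator proteins, and Tubb3 (-0.38 ± 0.08), a neuronal beta tubulin, were lower. Sox11 had a median of 42.2 (25.3 to 61.9) at 5 months and 27.0 (12.0 to 36.1) at 12 months, and the highest 12-month rats overlapped the lowest 5-month rats. Dcx, doublecortin, the usual marker of newborn neurons, changed by -0.02 ± 0.10 (limma adjusted p = 0.92), with -0.13 in the first number run and 0.17 in the second.

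Among signals that act on the niche, genes of the Notch, hedgehog and Wnt pathways were called lower more often than higher. Of 24 Notch pathway genes tested, none rose and 13 fell, against the background of 18.5%, and the median log2 change over the 24 was -0.28 (-0.09 in the first number run and -0.44 in the second), beside 0.01 over all genes. The number that fell was 12 without rats 3339 and 3342. In 6 of the 24 the call came with an unadjusted p under 0.05 in the same direction in each run, against 1885 of all 14526 genes. The ligands Jag2 (-0.35 ± 0.09) and Dll1 (-0.36 ± 0.11), the receptors Notch3 and Notch1 (-0.39 ± 0.10), and the targets Hes5 (-0.63 ± 0.13), Heyl (-0.46 ± 0.10) and Nrarp (-0.39 ± 0.11) were lower. Dtx1 (-0.51 ± 0.10), a ubiquitin ligase of the pathway, and Rfng (-0.32 ± 0.08), a fringe glycosyltransferase that modifies the receptors, fell too. The calls for Lfng and Mfng, the other 2 fringe enzymes, were lost when single rats were left out. Rbpj, the DNA-binding effector of the pathway, changed by 0.01 ± 0.06 (limma adjusted p = 0.96), and Notch2 by 0.15 ± 0.08 (limma adjusted p = 0.13). Hes5 had a median of 184 (118 to 253) at 5 months and 111 (76.5 to 184) at 12 months. Its change was -0.29 in the first number run and -1.07 in the second, and Nrarp changed by -0.02 in the first number run and -0.76 in the second.

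The promoter of Hes5 is shown because it holds the letters known to be bound by Rbpj. It is the 250 bases before the RefSeq start at chr5:170804327-170804576 on the plus strand of GRCr8, with matches to GTGGGAA on either strand in capitals.
Hes5: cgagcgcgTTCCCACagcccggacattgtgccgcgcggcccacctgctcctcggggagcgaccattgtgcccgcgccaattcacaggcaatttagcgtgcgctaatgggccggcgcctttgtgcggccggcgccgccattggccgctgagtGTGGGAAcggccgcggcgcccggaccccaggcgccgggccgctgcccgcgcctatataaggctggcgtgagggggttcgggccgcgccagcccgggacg
It has 2 such matches, whose first bases lie 242 and 99 bases before the start. Over the promoters of the Notch genes, 5 of 21 matched in RefSeq (23.8%) held the motif, 3 of 12 of those lower and 2 of 9 of those not called, against 5.27% of 33469 promoters of this length. A match describes letters in this window only.

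Of 17 hedgehog pathway genes none rose and 7 fell (9 without rats 3339 and 3342). Their median change was -0.004 in the first number run and -0.35 in the second, and only 1 had an unadjusted p under 0.05 in the same direction in each run. Those that fell included Gli1 (-0.72 ± 0.20) and Gli2 (-0.64 ± 0.09), the transcriptional effectors, Smo (-0.22 ± 0.08), the signal transducer, and Boc (-0.23 ± 0.07), a coreceptor. Gli1 had a median of 30.5 (17.9 to 56.8) at 5 months and 18.7 (7.25 to 34.2) at 12 months, and Ptch1, receptor and target, changed by -0.15 ± 0.07 (limma adjusted p = 0.071). Of 51 Wnt pathway genes 4 rose and 15 fell, with a median change of -0.07 in the first number run and -0.30 in the second. The ligands Wnt7a (-0.29 ± 0.06) and Wnt7b (-0.28 ± 0.09), the receptors Fzd2 (-0.68 ± 0.15), Fzd9 (-0.40 ± 0.11) and Fzd1 (-0.45 ± 0.11), the coreceptor Lrp5 (-0.46 ± 0.12) and the target Axin2 (-0.22 ± 0.07) were lower, and Gsk3b (0.35 ± 0.07) and Apc (0.21 ± 0.05), members of the complex that degrades beta-catenin, were higher. Fzd2 had a median of 269 (124 to 334) at 5 months and 149.8 (72.1 to 267) at 12 months. BMP and TGF-beta genes were split, 6 higher and 6 lower of 33: the receptor Bmpr2 (0.41 ± 0.12) and the secreted BMP antagonist Grem1 (0.48 ± 0.12) rose, while the antagonist Nog (-0.43 ± 0.10), noggin, the ligand Bmp4 (-0.29 ± 0.09), the inhibitor Smad7 (-0.31 ± 0.07) and the target Id3 (-0.45 ± 0.11) fell. Nog had a median of 147 (88.1 to 185) at 5 months and 103 (79.2 to 139) at 12 months.

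Receptors for GABA were called higher more often than the background. Of 13 GABA-A receptor subunits tested, 7 rose and 1 fell, with a median log2 change of 0.22. Without rats 3339 and 3342 the counts were 5 and 1. Gabra3, the alpha3 subunit, had a median of 302 (240.1 to 416) at 5 months and 519.8 (393 to 673) at 12 months, a log2 change of 0.77 ± 0.09 (limma adjusted p = 1.8e-06). All 16 rats of 12 months lay above the 5-month median, and only the edges of the 2 ranges overlapped. Gabra4 (0.19 ± 0.06), another alpha subunit, and Gabrg1 (0.41 ± 0.10), a gamma subunit, also rose. Gabrd (-0.23 ± 0.07), the delta subunit of extrasynaptic receptors of granule cells, was the 1 that fell, from 1293 to 1043 by group median. Of 19 interneuron genes, 2 rose and 2 fell, and the total of 4 dropped to 2 when 5-month rat 6, 7 or 9 or 12-month rat 1 or 5 was left out. With rats 3339 and 3342 left out none rose and 3 fell. Slc32a1, the vesicular GABA transporter, fell by 0.41 on the log2 scale, while Gad1, which makes GABA, changed by 0.05 ± 0.06 and Pvalb, Sst and Npy by -0.17, -0.03 and -0.11, none past the threshold.

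Glutamate receptor genes moved in both directions, by subunit. Of 27 ionotropic receptor and auxiliary genes, 6 rose and 10 fell. The AMPA receptor subunits Gria2 (0.39 ± 0.08) and Gria4 (0.39 ± 0.06) rose, as did Gria3 (0.30 ± 0.10), whose call was lost without rats 3339 and 3342 (limma adjusted p = 0.095), while Gria1 changed by -0.11 ± 0.07 (limma adjusted p = 0.21). Of 10 genes for AMPA receptor auxiliary proteins, none rose and 5 fell, among them Cnih2 (-0.63 ± 0.11), cornichon 2, and the TARPs Cacng2 (-0.40 ± 0.10), Cacng4 (-0.34 ± 0.08) and Cacng8 (-0.31 ± 0.07). Cnih2 had a median of 8101 (4988 to 9742) at 5 months and 5147 (3494 to 7412) at 12 months, with all 16 rats of 12 months below the 5-month median and the ranges overlapping. Of the NMDA receptor subunits, Grin2a (0.31 ± 0.08) rose and Grin1 (-0.25 ± 0.06), the obligatory subunit, Grin2c (-0.48 ± 0.09) and Grin2d (-0.52 ± 0.13) fell. The kainate subunit Grik2 (0.31 ± 0.09) rose and Grik5 (-0.46 ± 0.09) fell. Of 8 metabotropic receptors, Grm2 (-0.45 ± 0.09) and Grm4 (-0.46 ± 0.14), presynaptic inhibitory receptors, fell and Grm7 (0.16 ± 0.05) rose.

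Of 25 postsynaptic scaffold and CaMKII genes, 3 rose and 10 fell, and the rises were 5 without 5-month rat 1 or 2. Nrgn (-0.47 ± 0.09), neurogranin, which binds calmodulin in dendritic spines, Camk2b (-0.34 ± 0.08), a CaMKII subunit, and Dlgap3 (-0.59 ± 0.13), Shank1 (-0.36 ± 0.11) and Shank3 (-0.25 ± 0.07), the last 3 scaffolds, were lower. Nrgn had a median of 34605 (25309 to 45540.4) at 5 months and 25152 (17188 to 30136) at 12 months, and its change was -0.45 in the first number run and -0.45 in the second. Dlg4, which codes for PSD-95, changed by -0.16 ± 0.07 (limma adjusted p = 0.064). Vesicle release genes were split, 6 higher and 9 lower of 31. Pclo (0.32 ± 0.07), a protein of the presynaptic active zone, Rims2 (0.24 ± 0.06) and Snap25 (0.25 ± 0.07), a SNARE protein, rose. Slc17a7 (-0.29 ± 0.09), the vesicular glutamate transporter of granule cells, Vamp2 (-0.24 ± 0.07), another SNARE protein, and Syp (-0.16 ± 0.05), synaptophysin, fell.

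Ion channels showed the same mixture. Of 35 potassium and HCN channel genes, 5 rose and 11 fell. Kcnip4 (0.36 ± 0.08) and Kcnma1 (0.24 ± 0.07), the large-conductance calcium-activated channel, rose, and Kcnj4 (-0.34 ± 0.07), an inward rectifier, and Hcn3 (-0.48 ± 0.11), a pacemaker channel, fell. Kcnj4 had a median of 2979 (2293 to 3589.7) at 5 months and 2414 (1813 to 2800.4) at 12 months. Of 15 calcium channel genes, 4 rose and 6 fell, including all 3 genes of the low-voltage-activated T type: Cacna1g (-0.36 ± 0.09), Cacna1h (-0.34 ± 0.09) and Cacna1i (-0.43 ± 0.09). Cacna1i had a median of 1931 (1575 to 2722) at 5 months and 1452 (1065 to 1929.5) at 12 months. Cacna1e (0.23 ± 0.08), Cacnb4 (0.36 ± 0.09) and Cacna2d1 (0.31 ± 0.09) were among those higher.

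Of 27 activity-induced genes, 1 rose and 10 fell, with a median change of -0.15 in the first number run and -0.39 in the second. Egr3 (-0.34 ± 0.07), Egr4 (-0.54 ± 0.12), Egr2 (-0.69 ± 0.22), Junb (-0.43 ± 0.11) and Fos (-0.42 ± 0.13), transcription factors induced within minutes of neuronal firing, and Nptx2 (-0.24 ± 0.06), a secreted pentraxin of excitatory synapses, were lower. Egr3 had a median of 2483 (2093 to 2936) at 5 months and 1966 (1554 to 2597) at 12 months and Fos a median of 234 (180.5 to 406) at 5 months and 196 (112 to 298) at 12 months. The ages overlapped in both genes. Arc, a regulator of synaptic strength, changed by -0.38 ± 0.16 (limma adjusted p = 0.057), and Bdnf by 0.03 ± 0.06 (limma adjusted p = 0.72). The single rise, in Ptgs2, was called in 12 of the 28 fits that left out 1 rat.

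Microglial and immune genes gave few falls in the pooled comparison, beside the background of 18.5% in each direction. Their shares of rises were not far from that background, and most members of each list were not called. Of 22 homeostatic microglia genes, 6 rose and 0 fell: Ptprc (0.58 ± 0.15), the leukocyte phosphatase CD45, Aif1 (0.37 ± 0.10), which codes for IBA1, and Gpr34 (0.36 ± 0.11) among them. The median change of the 22 was 0.18 in the first number run and 0.007 in the second, which alone gave 6 rises and 4 falls. Csf1r, the receptor for colony-stimulating factor, changed by -0.17 ± 0.10, Cx3cr1 by -0.05 ± 0.10 and Tmem119 by -0.02 ± 0.09, none past the threshold. Fcgr2b, the inhibitory Fc receptor for IgG, had a median of 59.9 (47.4 to 87.8) at 5 months and 136 (70.7 to 237) at 12 months and a log2 change of 1.01 ± 0.14 (limma adjusted p = 6.2e-05). Among 15 genes of Fc receptors and activated microglia, 2 rose, Fcgr2b and Gpnmb (0.40 ± 0.10), a glycoprotein of activated microglia. The 1 that fell was Axl (-0.25 ± 0.08), a receptor for dying cells. Of 17 complement genes, 4 rose and none fell. C3 (0.64 ± 0.13), the central complement component, had a median of 587 (394 to 656) at 5 months and 846 (609 to 2312) at 12 months, and 16 of 16 rats of 12 months lay above the 5-month median. C1qa, C1qb and C1qc, the starting subunits of the classical pathway, changed by 0.08, 0.10 and 0.15, none past the threshold.

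Genes of MHC class II, which present peptides to helper T cells, were far higher in some 12-month rats than in others. RT1-Da, an alpha chain, had a median of 9.26 (3.84 to 19.4) at 5 months and 23.9 (7.49 to 907) at 12 months. The 2 highest values, 907 in 12-month rat 10 (3352) and 213 in 12-month rat 8 (3350), were far above the third highest, 47.3 in 12-month rat 14 (3676). The same 2 rats were highest for Cd74, the invariant chain (3266 and 799), and for RT1-Ba, another alpha chain (553 and 125). Of the 8 class II genes tested, 2 (RT1-Da and RT1-Ba) passed the threshold, both also without rats 3339 and 3342. Their log2 changes were 1.48 ± 0.45 (limma adjusted p = 0.012) and 1.33 ± 0.44 (limma adjusted p = 0.018), while Cd74 changed by 0.99 ± 0.41 (limma adjusted p = 0.059). The 5-month median of RT1-Da lay under the filter of 10, so that it passed the filter only through the 12-month group in which it was high. Its call supports nothing further, and how RT1-Ba passed the filter was not counted by age. On recovered reads Cd74 passed, with a log2 change of 2.27 by edgeR's quasi-likelihood test and 1.04 by DESeq2. By edgeR the changes of RT1-Da and RT1-Ba were 2.97 and 2.83, and by DESeq2 1.59 and 1.43. The count of passing genes rose from 2 to 4 when 12-month rat 6 or 13 was left out. C4a, a complement component, reached 566 and 401 in the same rats, with a pooled change of 0.52 ± 0.28 (limma adjusted p = 0.14). By edgeR's quasi-likelihood test it passed, with 0.89 (adjusted p = 0.035), and by DESeq2 it did not, with 0.51 (adjusted p = 0.11). Reads of C4a and the near-identical C4b, like those of the class II alpha and beta genes, may be shared.

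**Figure D3:**
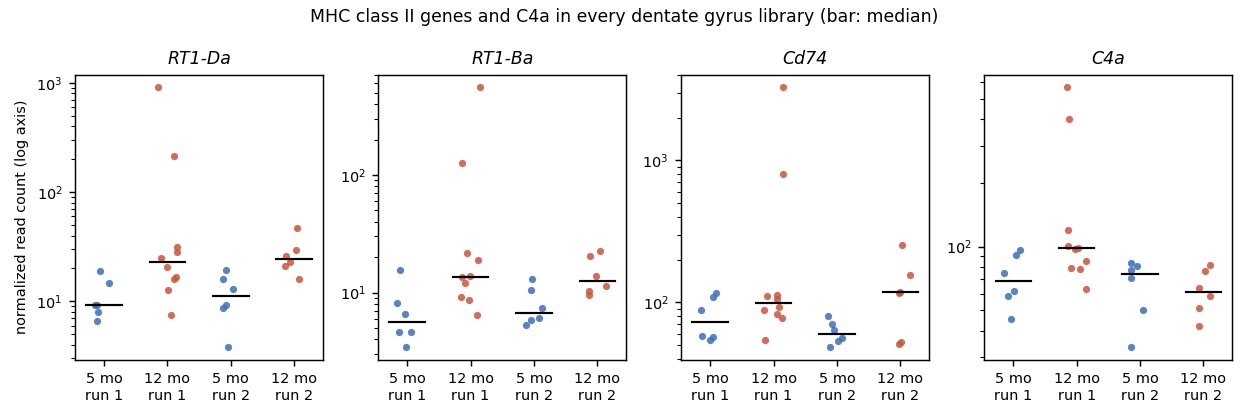
Normalized counts (log axis) of RT1-Da, RT1-Ba, Cd74 and C4a in each of the 28 rats, by age and number run, with bars at the group medians. 12-month rats 8 and 10 (3350 and 3352), both of the first number run, are the 2 highest points in each of the 4 genes.

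Of 17 MHC class I and peptide-loading genes 3 rose: B2m (0.33 ± 0.07), the light chain shared by class I molecules, RT1-N3 (0.44 ± 0.16) and Erap1 (0.26 ± 0.10), a peptide trimmer. The calls of the last pair were lost when 12-month rat 15 was left out, and that of RT1-N3 without rats 3339 and 3342. In the second number run alone, 3 of the 17 rose and 3 fell. B2m had a median of 2179 (1823 to 2608) at 5 months and 2754 (2106 to 3244) at 12 months. Of 33 interferon-induced genes, 9 rose and none fell, while the second number run alone gave 5 rises and 2 falls. Eif2ak2 (0.41 ± 0.08), the kinase PKR that senses double-stranded RNA, Ifi44 (0.60 ± 0.13), Ifit2 (0.44 ± 0.13) and Ifit3 (0.99 ± 0.31), RNA-binding antiviral proteins, Herc6 (0.57 ± 0.14), a ubiquitin ligase of the ISG15 pathway, and Parp9 (0.41 ± 0.12) were higher. Ifi44 had a median of 49.2 (28.7 to 59.5) at 5 months and 76.6 (37.9 to 93.9) at 12 months and Ifit3 a median of 16.9 (0.96 to 39.0) at 5 months and 28.8 (12.6 to 46.7) at 12 months, both overlapping between the ages. Ifit3 changed by 0.34 in the first number run and 1.77 in the second. Isg15 and Mx1, standard members of this response, changed by -0.12 and 0.40, neither past the threshold.

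The promoters of 3 of the interferon-induced genes that rose are shown because each holds the core of the interferon-stimulated response element, a pair of GAAA repeats set 2 bases apart, on 1 strand or the other and given in capitals. They are the 250 bases before the RefSeq starts at chr2:243303841-243304090 (minus strand), chr1:241527076-241527325 (plus strand) and chr6:21940904-21941153 (plus strand) of GRCr8, each written 5′ to 3′ along its gene.
Ifi44: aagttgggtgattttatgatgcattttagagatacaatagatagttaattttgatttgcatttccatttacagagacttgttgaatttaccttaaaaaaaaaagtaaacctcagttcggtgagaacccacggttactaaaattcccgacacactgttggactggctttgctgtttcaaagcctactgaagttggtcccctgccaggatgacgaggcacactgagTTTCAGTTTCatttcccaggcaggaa
Ifit3: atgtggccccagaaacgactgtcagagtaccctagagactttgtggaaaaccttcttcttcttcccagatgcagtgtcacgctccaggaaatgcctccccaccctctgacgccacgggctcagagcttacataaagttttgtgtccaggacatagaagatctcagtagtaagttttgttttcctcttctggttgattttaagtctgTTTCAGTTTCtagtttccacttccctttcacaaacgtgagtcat
Eif2ak2: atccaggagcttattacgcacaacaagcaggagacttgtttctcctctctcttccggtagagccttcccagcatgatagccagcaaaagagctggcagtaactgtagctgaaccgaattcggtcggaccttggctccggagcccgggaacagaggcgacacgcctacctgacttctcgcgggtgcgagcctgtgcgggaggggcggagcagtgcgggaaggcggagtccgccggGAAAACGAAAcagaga
The element was found in 15 of the 25 promoters of the interferon list that could be matched (60.0%), against 3.41% of 33469 RefSeq promoters. Of members not called 11 of 18 held it, and of those higher 4 of 7.

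Astrocyte genes gave 1 rise and 4 falls among 20 in the pooled comparison. Their median change was 0.07 in the first number run and -0.22 in the second, where the second run alone gave no rise and 11 falls, and the run difference passed in 6 of the 20, against 6.15% of all genes. Aqp4 (0.25 ± 0.08), the water channel of astrocyte endfeet, rose, and Agt (-0.45 ± 0.10), angiotensinogen, Atp1b2 (-0.25 ± 0.07), a sodium pump subunit, and Sox9 fell. Agt had a median of 5115 (3878 to 8586) at 5 months and 3868 (2729 to 5817) at 12 months. Of 14 oligodendrocyte precursor genes, 1 rose and 6 fell, among them Cspg4 (-0.44 ± 0.11), the NG2 proteoglycan, Gpr17 (-0.73 ± 0.19), a receptor of committed precursors, and Sox10 (-0.32 ± 0.09), the lineage's transcription factor. The median change of the 14 was 0.03 in the first number run and -0.18 in the second, and the counts without rats 3339 and 3342 were 3 and 6. Gpr17 changed by -0.17 in the first number run and -1.44 in the second, and Pdgfra, the receptor that defines the precursors, by 0.05 ± 0.07. Of 19 mature oligodendrocyte genes, 5 rose and 1 fell in the pooled comparison. The runs parted here as well: the median change was 0.19 in the first number run and -0.15 in the second, the second run alone gave 2 rises and 7 falls, and the run difference passed in 3 of the 19. Ermn (0.46 ± 0.09), a late cytoskeletal protein of oligodendrocytes, Aspa (0.59 ± 0.14), aspartoacylase, Opalin (0.37 ± 0.10), Tspan2 (0.31 ± 0.09) and Mobp (0.21 ± 0.07) rose. Aspa had a median of 84.1 (65.1 to 135) at 5 months and 139 (80.3 to 234) at 12 months. Mbp, which codes for myelin basic protein, changed by -0.12 ± 0.09 and did not pass the threshold.

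Genes of vessels were called lower more often than higher. Of 19 endothelial genes 1 rose and 7 fell, a total of 8 that dropped to 5 when 12-month rat 1 or 5-month rat 8 or 9 was left out. Cldn5 (-0.43 ± 0.10), the claudin of the blood-brain barrier, Tie1 (-0.43 ± 0.09), an endothelial receptor, Egfl7 (-0.42 ± 0.11) and Slc7a5 (-0.43 ± 0.08), an amino acid transporter, were among the falls. Cldn5 had a median of 1598 (1075 to 1837) at 5 months and 1143 (669 to 1472) at 12 months. Of 12 mural cell genes 4 fell, including Notch3, Vtn (-0.29 ± 0.09), vitronectin, and Higd1b (-0.53 ± 0.16), a pericyte gene. Of 40 collagen, laminin and matrix enzyme genes 4 rose and 12 fell. Col1a2 (-1.62 ± 0.27), the partner chain of Col1a1, Serpinh1 (-0.56 ± 0.10), the collagen chaperone, Fbln2 (-0.53 ± 0.10), fibulin 2, and Lamb2 (-0.41 ± 0.09), a laminin chain of vessels, were lower. Col1a2 had a median of 46.2 (17.0 to 82.4) at 5 months and 14.7 (2.29 to 30.5) at 12 months. Col18a1 (0.48 ± 0.08), another collagen chain, and Lox (0.49 ± 0.14), a lysyl oxidase, were higher.

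Of 16 perineuronal net and proteoglycan genes, 3 rose and 3 fell, and 2 and 5 without rats 3339 and 3342. The falls were also 5 without 12-month rat 4. Their median change was 0.08 in the first number run and -0.33 in the second. Bcan (-0.43 ± 0.09), brevican, fell, from a median of 9469 to 7146, and Ptprz1 (0.20 ± 0.06) and Vcan (0.26 ± 0.08) rose. Glycan-building enzymes were called lower more often than higher: 19 fell and 2 rose of 52. Mgat5b (-0.48 ± 0.07), which branches O-mannosyl glycans of the brain, Hs6st1 (-0.58 ± 0.10), a heparan sulfate sulfotransferase, Mgat1 (-0.31 ± 0.07), the first enzyme of complex N-glycan synthesis, and Chst1 (-0.34 ± 0.07) and Chst2 (-0.37 ± 0.09), sulfotransferases, fell. Hs6st1 had a median of 958 (795 to 1293) at 5 months and 691 (469.7 to 1044) at 12 months. Gcnt1, which starts core 2 branches of O-glycans, rose with a median of 73.8 (47.8 to 90.2) at 5 months and 133 (79.2 to 166) at 12 months. Of 59 axon guidance genes 6 rose and 24 fell, with a median change of -0.003 in the first number run and -0.32 in the second. Robo2 (0.39 ± 0.06), a Slit receptor, Epha7 (0.34 ± 0.06) and Unc5d (0.29 ± 0.05), guidance receptors, rose, while ephrins (Efnb1 (-0.45 ± 0.09), Efnb3 (-0.30 ± 0.08), Efna2 (-0.49 ± 0.11) and Efna3 (-0.35 ± 0.08)) and semaphorins (Sema6b (-0.38 ± 0.07), Sema4f (-0.33 ± 0.06) and Sema6c (-0.37 ± 0.09)) fell. Robo2 had a median of 1683 (1402 to 2143) at 5 months and 2274 (1673 to 2744) at 12 months. Of 16 cadherins, 4 rose and 2 fell, and 6 and 1 without rats 3339 and 3342. In the second number run alone 4 rose and 4 fell. Cdh12 (0.68 ± 0.13) and Cdh9 (0.48 ± 0.12), neuronal adhesion molecules, were among the rises over all libraries.

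The number runs also parted in genes of protein synthesis and energy metabolism. Cytosolic ribosomal protein genes had a median change of -0.21 in the first number run and 0.37 in the second, and the difference passed the threshold in 29 of 66, against 893 of 14526 genes (6.15%). Rps27, a small-subunit protein, changed by -0.10 in the first number run and 1.63 in the second, a difference of 1.73 ± 0.25 (limma adjusted p = 3.0e-04). In the pooled comparison 7 rose and 6 fell, and the total dropped from 13 to 8 without 5-month rat 10. The rises were 3 to 4 without 5-month rat 1, 7, 8, 9 or 10 or 12-month rat 11 or 12. Without 5-month rat 3 or 6 alone the rises were 13 and 15 and the falls 3. Without rats 3339 and 3342 29 rose and 3 fell. Rplp0 (-0.41 ± 0.10) and Rpl6 (-0.50 ± 0.14), large-subunit proteins, and Rps2 (-0.50 ± 0.14) fell, with changes of -0.41 and -0.40 by run for Rplp0. Ribosomal protein genes have many processed copies in the genome, so their counts are uncertain where reads could match a copy.

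Nuclear genes of the respiratory chain showed the same split by run. Of 73 tested, 12 rose and 10 fell in the pooled comparison, and 24 and 7 without rats 3339 and 3342. The difference between the runs passed the threshold in 21 of the 73. Members that rose included Ndufa3 (0.04 and 0.97) of complex I, Uqcrb (0.04 and 0.73) of complex III and Atp5pf (0.04 and 0.73) of ATP synthase, with changes in the first and second run in parentheses. Ndufv1 (-0.27 and -0.26), Atp5f1b (-0.22 and -0.21), Uqcrc1 (-0.24 and -0.18) and Cyc1 (-0.21 and -0.18), of complexes I, V and III, were among those that fell. Of 13 mitochondrially encoded genes 2 rose, and without rats 3339 and 3342 10 did. That count ran from 1 to 5 when single rats were left out, and the total moved by over 1.5 times in 20 of the 28 such fits. Mt-atp8 changed by 0.13 in the first number run and 1.49 in the second. The share of reads from these genes was 8.58% ± 2.91 (SD, n = 6) at 5 months and 7.72% ± 1.15 (SD, n = 10) at 12 months in the first run, and 5.54% ± 1.14 (SD, n = 6) and 8.37% ± 1.43 (SD, n = 6) in the second, a shift whose part in these results was not tested.

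**Figure D4:**
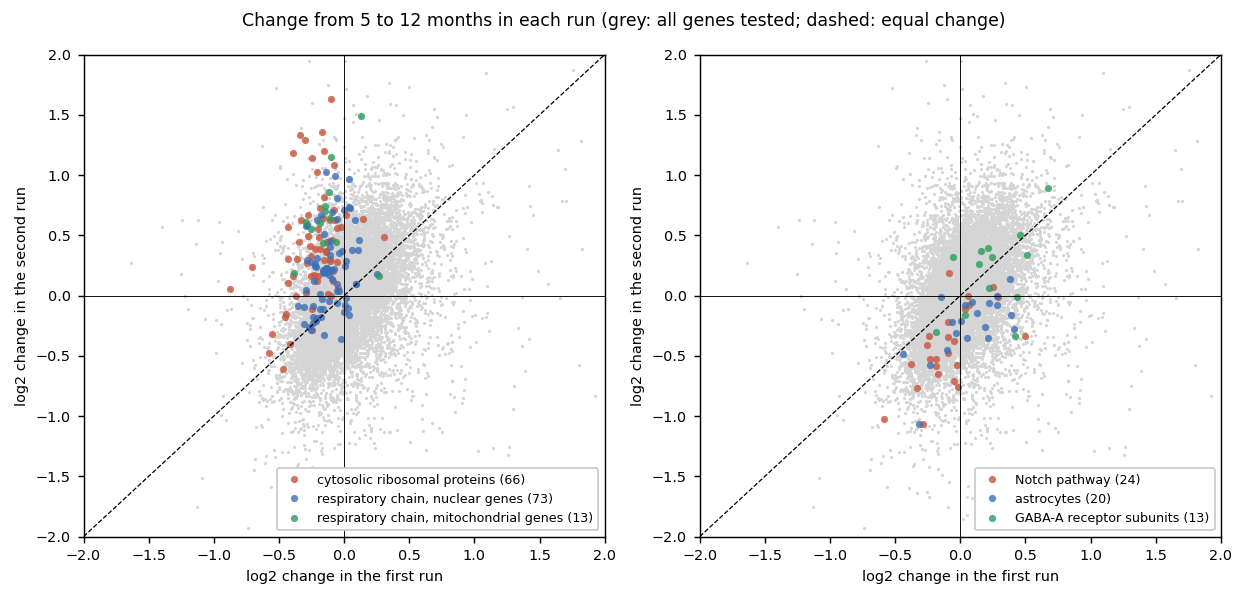
Log2 change (12 minus 5 months) of each gene tested in the first number run (horizontal) and the second (vertical), with ribosomal protein and respiratory chain genes marked on the left and Notch, astrocyte and GABA-A receptor genes on the right. Axes span -2 to 2, which leaves out 29 genes. The ribosomal and respiratory chain points lie mostly above the diagonal, and most Notch points lie below 0 on the vertical axis.

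Of 38 proteasome genes 7 rose and 3 fell, and 12 and 3 without rats 3339 and 3342. The falls were 5 without 5-month rat 1. Psme4 (0.50 ± 0.12), the proteasome activator PA200, and Psme1 (0.33 ± 0.10), an interferon-responsive activator subunit, rose, and Psmb5 (-0.30 ± 0.08), a catalytic subunit, fell. Psme4 had a median of 483 (251 to 559.6) at 5 months and 617 (379.9 to 809) at 12 months, and its change was 0.48 in the first number run and 0.57 in the second. Heat shock genes moved in both directions: of 18, 6 rose and 5 fell. Dnajb1 (-0.35 ± 0.06), a cytosolic cochaperone, Bag3 (-0.40 ± 0.11), its partner in chaperone-assisted degradation, Hspb1 (-0.48 ± 0.14), a small heat shock protein, and Hspa1a fell. Hspa1a had a median of 765 (494 to 1256) at 5 months and 429 (289 to 670.4) at 12 months. Hspd1 (0.41 ± 0.10) and Hspe1 (0.49 ± 0.15), the chaperonin of mitochondria and its cap, Hspa9 (0.38 ± 0.07), the mitochondrial HSP70, and Hsp90b1 (0.32 ± 0.10), the HSP90 of the endoplasmic reticulum, rose, as did Hspa4l (0.33 ± 0.06), a cytosolic member of the HSP110 family. The chaperonin change rested on the second number run, with 0.08 in the first number run and 0.76 in the second for Hspd1.

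The promoters of 3 of these genes, 2 that fell and 1 that rose, are shown because all hold the letters GAANNTTC of the heat shock element, in capitals. They are the 250 bases before the RefSeq starts at chr19:41431142-41431391 (minus strand), chr1:192533210-192533459 (plus strand) and chr9:64084038-64084287 (minus strand) of GRCr8, written 5′ to 3′ along each gene.
Dnajb1: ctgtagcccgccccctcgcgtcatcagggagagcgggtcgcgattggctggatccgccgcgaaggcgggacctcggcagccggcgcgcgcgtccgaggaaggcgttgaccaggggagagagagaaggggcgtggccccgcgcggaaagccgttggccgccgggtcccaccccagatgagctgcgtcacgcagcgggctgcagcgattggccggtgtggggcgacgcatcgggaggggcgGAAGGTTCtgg
Bag3: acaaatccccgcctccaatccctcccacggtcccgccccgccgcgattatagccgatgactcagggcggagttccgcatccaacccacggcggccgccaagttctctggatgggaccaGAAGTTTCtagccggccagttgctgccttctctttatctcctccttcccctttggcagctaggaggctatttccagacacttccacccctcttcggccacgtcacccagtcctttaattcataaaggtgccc
Hspd1: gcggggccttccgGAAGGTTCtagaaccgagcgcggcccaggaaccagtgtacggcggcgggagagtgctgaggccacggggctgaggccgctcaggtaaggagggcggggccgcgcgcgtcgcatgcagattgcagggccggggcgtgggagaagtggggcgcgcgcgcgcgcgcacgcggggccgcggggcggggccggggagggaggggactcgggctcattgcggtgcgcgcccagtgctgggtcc
The letters stood in 9 of 16 matched promoters of the list (56.2%), 3 of 6 higher, 3 of 5 lower and 3 of 5 not called, against 7.23% of all 33469 promoters.

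Splicing factors of the SR and hnRNP families were called higher in 18 of 30 cases and lower in 1. Their median log2 change was 0.27, with 0.15 in the first number run and 0.38 in the second. Alone, the first run gave 0 calls, and the second gave 20 rises and 1 fall. Only 2 of the 30 had an unadjusted p under 0.05 in the same direction in each run. Hnrnph2 (0.40 ± 0.08), Hnrnph1 (0.42 ± 0.10), Hnrnpu (0.39 ± 0.09), Hnrnpdl (0.36 ± 0.08), Srsf10 (0.49 ± 0.11) and Tra2b (0.32 ± 0.08) were among the 18 that rose over all libraries. Hnrnph2 had a median of 774 (679 to 1131) at 5 months and 1109 (822 to 1454) at 12 months, and Hnrnpu a median of 3166 (2431 to 4937) at 5 months and 4448 (2674 to 5454) at 12 months. The change of Hnrnph1 was 0.34 in the first number run and 0.53 in the second. Hnrnpk and Hnrnpc, abundant members of the same family, changed by 0.10 and 0.01, neither past the threshold.

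Chromatin enzymes were split evenly, 9 higher and 9 lower of 50. Kdm6a (0.38 ± 0.09), Kdm3a (0.31 ± 0.08) and Kdm5a (0.20 ± 0.05), histone demethylases, Tet2 (0.27 ± 0.07), which oxidizes methylated cytosine, and Kmt2a (0.28 ± 0.08) and Setd2 (0.25 ± 0.07), histone methyltransferases, rose. Ehmt2 (-0.33 ± 0.06), the H3 lysine 9 methyltransferase G9a, Hdac5 (-0.35 ± 0.07), Hdac6 (-0.23 ± 0.06) and Kdm4b (-0.28 ± 0.06) fell. Ehmt2 had a median of 6114 (5316 to 6858) at 5 months and 4984 (4142 to 6577) at 12 months. Tubulins were called lower in 7 of 13 cases and higher in none. Tuba1a (-0.27 ± 0.05), Tubb2b (-0.36 ± 0.07) and Tubb5 (-0.27 ± 0.08) were among them, with reads that near-identical tubulin genes may share.

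Of 30 cholesterol genes 4 rose and 7 fell, and 2 and 8 without rats 3339 and 3342. The rises were also 2 when 5-month rat 7 or 12-month rat 1, 5, 7, 12 or 14 alone was left out. Fdps (-0.26 ± 0.05), Mvd (-0.32 ± 0.10), Dhcr7 (-0.31 ± 0.08) and Tm7sf2 (-0.39 ± 0.09), enzymes of synthesis, and Srebf2 (-0.21 ± 0.06), their transcription factor, were lower. Of 36 lysosome genes 5 rose and 8 fell, a balance that turned to 7 and 5 without rats 3339 and 3342. The falls were also 5 when 5-month rat 3 or 12 alone was left out. Ctss (0.32 ± 0.09), the cathepsin of microglia, Lamp2 (0.31 ± 0.07) and Asah1 (0.32 ± 0.09), acid ceramidase, rose, and Mcoln1 (-0.25 ± 0.06), the lysosomal calcium channel, Neu1 (-0.28 ± 0.07), a sialidase, and Psap (-0.18 ± 0.06), prosaposin, fell. Of 19 clock genes 3 rose and 5 fell, and 1 and 4 without rats 3339 and 3342. Nr1d1 (-0.41 ± 0.08), Per1 (-0.26 ± 0.07) and Cry2 (-0.24 ± 0.05), repressors of the clock, were lower and Nr1d2 (0.30 ± 0.07) was higher. Of 14 glucocorticoid receptor and response genes 4 rose and none fell: Pdk4, Sgk1 (0.52 ± 0.12), a kinase induced by corticosterone, Tsc22d3 (0.27 ± 0.08), which codes for GILZ, and Errfi1 (0.19 ± 0.05). Sgk1 had a median of 1595 (813 to 1966) at 5 months and 2329.8 (1262 to 3051) at 12 months, and Fkbp5, another response gene, changed by 0.11 ± 0.09 (limma adjusted p = 0.33).

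The age change itself differed between the number runs in 893 genes (6.15%), 537 with the higher value in the second run (3.70%) and 356 with the lower (2.45%). In 633 of them the changes had opposite signs, whether or not either change passed. Choosing genes for a difference favours this, and its share over all genes was not counted. The 5-month rats of the 2 runs differed in 2055 genes, and the 12-month rats in 97, by the same test. Pa2g4, a growth regulator, had a difference, second minus first, of 0.64 ± 0.09 (limma adjusted p = 3.0e-04), from changes of -0.02 in the first number run and 0.62 in the second. Fscn1, the actin bundler fascin, changed by 0.02 in the first number run and -0.97 in the second, and Sowaha had -0.82 ± 0.15 (limma adjusted p = 0.0022). Txnrd1, thioredoxin reductase, had -0.61 ± 0.10 (limma adjusted p = 5.2e-04), and Rfx4, a transcription factor of the neural tube lineage, -0.86 ± 0.16 (limma adjusted p = 0.0017). Pfdn1, a prefoldin subunit, 0.77 ± 0.12 (limma adjusted p = 3.5e-04), Ndufb9 0.87 ± 0.13 (limma adjusted p = 3.5e-04) and Ndufs5 0.83 ± 0.12 (limma adjusted p = 3.0e-04), both of complex I, and Rpl26 1.23 ± 0.19 (limma adjusted p = 3.5e-04) showed higher values in the second run. Plpp3, a lipid phosphatase of astrocytes, had -0.46 ± 0.08 (limma adjusted p = 0.0019), with the first run at 0.18 and the second at -0.28. All 10 genes remained past the threshold without rats 3339 and 3342, when the number of genes was 1231.

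Beside CA1 and CA3 of the same rats, the age change of the dentate gyrus differed in 413 of 14291 genes (2.89%), tested within rats as the dentate gyrus value minus the mean of the other 2 subregions. The dentate gyrus change was the higher one in 302 (2.11%) and the lower in 111 (0.777%), a split of 73.1% higher that became 61.2% (224 and 142) when each subregion's table was scaled on its own. Of the 413, 298 were also changed in the dentate gyrus itself and 115 were not. In 205 the sign there was opposite to both CA subregions, counted whether or not any of the changes passed. Choosing genes for a difference favours opposite signs, and their share over all genes was not counted, so this number describes the selection only. Without rats 3339 and 3342 260 remained. By number run alone the test gave 1 gene in the first and 1033 in the second, and CA1 marker levels in the dentate gyrus libraries were lower at 12 months in the second run, as given above, a fact whose part here was not tested.

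Among those with the smallest p, Trim44, a ubiquitin pathway protein, had a median of 643 (497 to 920.1) at 5 months and 859 (646 to 1098) at 12 months in the dentate gyrus, with a change of 0.32 ± 0.09 there against -0.30 in CA1 and -0.14 in CA3, and a difference of 0.55 ± 0.08 (limma adjusted p = 9.0e-04). Eya4, a transcriptional coactivator and phosphatase, had a median of 12.0 (5.75 to 21.8) at 5 months and 20.9 (13.5 to 34.9) at 12 months. Its change was 0.75 ± 0.18 against -0.42 and -0.08, a difference of 1.02 ± 0.16 (limma adjusted p = 0.0013). Caln1, a neuronal calcium-binding protein, rose by 0.43 in the dentate gyrus, with -0.38 and -0.06 elsewhere and a difference of 0.66 ± 0.11 (limma adjusted p = 0.0022). Fosl2, a partner of Jun, and Magi2, a synaptic scaffold, had changes of 0.11 ± 0.12 and 0.13 ± 0.06 that did not pass in the dentate gyrus, yet differences of 0.65 ± 0.11 (limma adjusted p = 0.0029) and 0.36 ± 0.05 (limma adjusted p = 0.0013). Ccdc6 had a difference of 0.58 ± 0.09 (limma adjusted p = 0.0013), AABR07021547.1 of 0.60 ± 0.10 (limma adjusted p = 0.0029) and AABR07068341.1 of 0.68 ± 0.12 (limma adjusted p = 0.0035).

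In the other direction, Fut4, a fucosyltransferase that makes the Lewis x antigen of neural precursors, had a median of 115 (85.5 to 168) at 5 months and 75.5 (61.1 to 99.8) at 12 months in the dentate gyrus. It fell by 0.63 there, while the changes in CA1 and CA3 were rises of 0.06 and 0.47, a difference of -0.88 ± 0.12 (limma adjusted p = 9.0e-04). Mdk, the growth factor midkine, had a median of 268 (226 to 400.1) at 5 months and 226 (148 to 286) at 12 months and a difference of -0.54 ± 0.11 (limma adjusted p = 0.014). Zbed5 -0.53 ± 0.10 (limma adjusted p = 0.0091), Gga2, a Golgi sorting adaptor, -0.30 ± 0.06 (limma adjusted p = 0.015), Nudt19, a coenzyme A hydrolase of peroxisomes, -0.40 ± 0.08 (limma adjusted p = 0.013), Pef1 -0.27 ± 0.06 (limma adjusted p = 0.016) and Elof1, an elongation factor of transcription, -0.38 ± 0.08 (limma adjusted p = 0.018) also had a lower age change in the dentate gyrus than in the other subregions. Pura, which binds single-stranded DNA and RNA, had a median of 551 (368 to 724) at 5 months and 344 (301 to 437) at 12 months and -0.49 ± 0.10 (limma adjusted p = 0.017). All 16 genes named for this comparison stayed past the threshold without rats 3339 and 3342 and in each of the 28 fits that left out 1 rat.

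**Figure D5:**
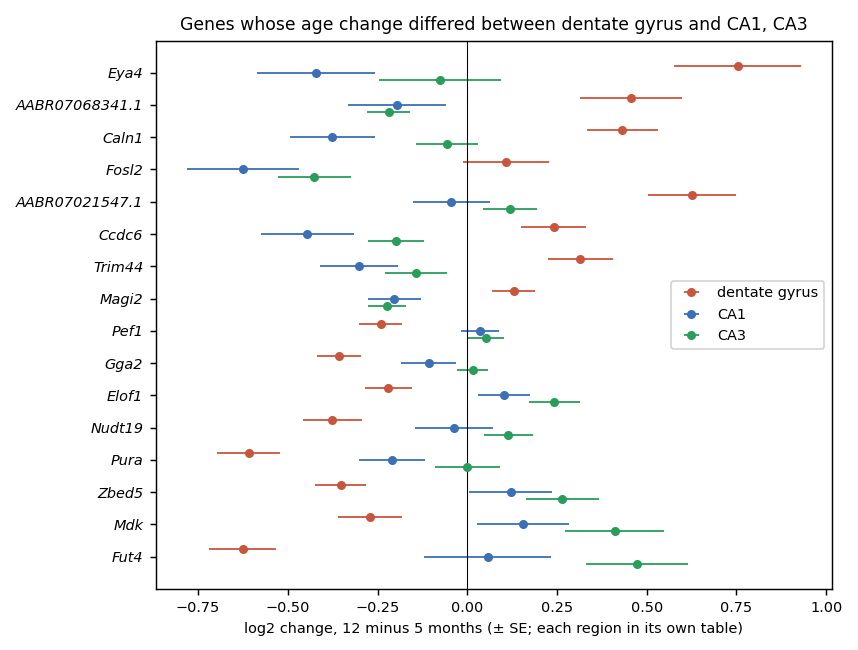
Log2 change (12 minus 5 months) in the dentate gyrus, CA1 and CA3, each with its standard error, for the 8 genes with the smallest p in each direction of the difference between the dentate gyrus and the mean of CA1 and CA3. Dentate gyrus points lie to the right of both CA points in the 8 upper genes and to the left of both in the 8 lower ones.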

How the data were processed

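Per the submitters' processing notes, STAR 2.5.3a, Partek and DESeq2 3.5 were used with build rn6. The role of each tool, and whether counting used strand, was not given in the sources used here. The deposited values are a signal, gene read counts divided by 1 size factor per library: all values up to 1000 reads were whole reads within 0.1 read, so depths were recovered from the deposited file. The genes tested had a minimum of 10 in 12 or more libraries. They were compared on log2(value + 1) with limma 3.58.1 (trend, empirical Bayes, R 4.3.3), adjusted by Benjamini and Hochberg over all genes, for age over all libraries, within each number run, for the run difference, and for the dentate gyrus minus the mean of CA1 and CA3 within rats, after joint TMM scaling. Alternatives were pseudocounts of 0.5 and 5, no filter or one of 50, TMM scaling, count tests on the recovered reads (edgeR 4.0.16, DESeq2 1.42.0), a run term, a fold of 1.2 and single rats left out. The fits were tested on simulated data. No 2 libraries of 1 age agreed within sampling noise (lowest chi-square per degree of freedom 5.24 over 186 pairs).

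Genes were named by rule: the 15 largest changes per direction among called genes averaging 50 or more with an unadjusted p under 0.05 in the same direction in each run, genes called in each run alone, up to 6 called members of each of 51 lists plus other members as values, and the 8 smallest p per direction for the run and subregion differences. Some genes that these rules name are not reported here. The members, lists and rules were chosen with earlier results of these data known. Promoters are RefSeq sequences of GRCr8, searched on both strands for GTGGGAA, GAANNTTC and the interferon-stimulated response element core. Where annotated genes overlap, or lie antisense, their reads cannot be told apart.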

Additional observations from a re-analysis of the deposited data

Results flagged for a closer look

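The age change of the dentate gyrus differed between the number runs in 893 genes and from that of CA1 and CA3 in 413, by tests of the difference itself. Among the genes named, the second run's change was above the first by 1.73 on the log2 scale in Rps27, 1.23 in Rpl26, 0.87 in Ndufb9, 0.83 in Ndufs5, 0.77 in Pfdn1 and 0.64 in Pa2g4. The difference was -0.999 in Fscn1, -0.86 in Rfx4, -0.82 in Sowaha, -0.75 in Nrarp, -0.61 in Txnrd1 and -0.46 in Plpp3.

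The dentate gyrus change exceeded the mean of CA1 and CA3 by 1.02 in Eya4, 0.68 in AABR07068341.1, 0.66 in Caln1, 0.65 in Fosl2, 0.60 in AABR07021547.1, 0.58 in Ccdc6, 0.55 in Trim44 and 0.36 in Magi2. It was lower by -0.88 in Fut4, -0.54 in Mdk, -0.53 in Zbed5, -0.49 in Pura, -0.40 in Nudt19, -0.38 in Elof1, -0.30 in Gga2 and -0.27 in Pef1.

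Single rats lay far from the rest of their age and run in 5 of 48 groups of values, 4 groups for each of the 12 genes plotted by rat. Chance marks about 1 in 20 groups, but RT1-Da, RT1-Ba, Cd74 and C4a were plotted because 2 rats stood apart in them, so the number is a description only. In 12-month rat 10 (3352) these were RT1-Da at 907, Cd74 at 3266 and RT1-Ba at 553 normalized counts. Anxa4 stood at 277 in 5-month rat 10 (3596), and Tspan18 at 584 in 5-month rat 9 (3595).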

How the results depend on the processing

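The count of 5382 genes fell to 3364 when a fold of at least 1.2 was also asked, and stayed within 1.5 times under every other alternative run over all libraries. Leaving out 1 rat gave 4703 to 6158 genes over all libraries and 5974 to 6965 in the second number run. In the first run it gave 4 to 314, with 13 of 16 omissions moving the 25 by over 1.5 times: without 5-month rats 1 to 6 in turn it was 211, 14, 10, 7, 6 and 7, and without 12-month rats 1, 2, 3, 6, 7, 9 and 10 it was 4, 15, 11, 314, 4, 7 and 10. Genes differing between runs numbered 474 to 1439, with 594 and 474 without 5-month rats 2 and 8, and 1439, 537, 533 and 537 without 12-month rats 5, 11, 12 and 14. Genes differing from CA1 and CA3 numbered 128 to 770: 770, 700, 236, 265, 269, 228 and 128 without 5-month rats 1, 2, 4, 5, 8, 9 and 11, and 632, 704, 261, 227, 258 and 247 without 12-month rats 3, 6, 9, 11, 13 and 15. By run alone they were 1 and 1033. The causes were not tested. No named call changed direction under any alternative. Of 272 named genes past the threshold over all libraries, 264 kept it in all 28 fits that left out 1 rat and 8 did not (Ccdc6, Erap1, Lfng, Mfng, Pfdn1, Ptgs2, RT1-N3 and Txnrd1). The split of higher and lower calls for CA1 and CA3 is given with the result. No paired analysis was possible because each rat gave libraries of 1 age only, so that replicate numbers, given in accession order, pair no rats between the ages. At these depths genes near the filter of 10, such as Mki67, are the least precise.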
